A study of Homo sapiens with 12 samples.

Results

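Collagen genes encode the chains of the collagens, the main structural proteins of the extracellular matrix. They were taken here as all protein-coding genes whose symbol is COL, a number, A and a number, which gave 44 of the 57773 genes listed; 41 of them were among the 21518 genes with enough counts to be tested, while COL9A1, COL20A1 and COL23A1 were not. Collagen chains wind together in sets to form a helix, and which chains combine decides what the collagen builds. Fibrillar collagens form the cable-like fibrils that fibroblasts lay down, FACIT collagens (fibril-associated collagens with interrupted helices) decorate these fibrils, type IV collagens form the sheet-like network of basement membranes, type VI collagens form beaded filaments around cells, and type VIII and X collagens form hexagonal networks. Before secretion the chains are hydroxylated and folded with the help of dedicated enzymes and chaperones, and outside the cell their ends are trimmed and the fibrils cross-linked.

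Bulk poly(A) RNA of WI-38 cells, a human fetal lung fibroblast line kept at a low number of population doublings, was sequenced in 4 groups of 3 libraries. All cells received 25 nM of an siRNA pool with RNAiMAX. Proliferating cells with the non-targeting pool (siCtrl_Prolif) were kept for 8 days in DMSO, the vehicle. The other cells were treated for 8 days with the DNA-damaging drug etoposide at 50 µM, which blocks topoisomerase and drives fibroblasts into senescence, after transfection with the non-targeting pool (siCtrl_Sen), a pool against NTRK2 mRNA, which encodes the receptor TrkB (siNTRK2_Sen), or a pool against BDNF mRNA, which encodes a ligand of TrkB (siBDNF_Sen). Each target was silenced with 1 pool, so effects of losing the target and other effects of that pool cannot be told apart. The study states in general that its cell culture experiments were repeated independently, with the groups of an experiment handled together, but neither this nor the labels tie these libraries to such repeats, so p-values measure the spread between these libraries, which may be technical. In bulk RNA, fewer cells that express a gene and less of its RNA per cell cannot be told apart. The study reports that silencing either target lowered the survival of senescent cells, more so in late than in early senescence. The silenced libraries thus hold RNA of the cells that remained at 8 days. The part of this loss of cells in the values below was not tested.

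The targeted mRNAs checked the labels. NTRK2 had 7 to 15 counts in the siCtrl_Sen libraries and 0 counts in every siNTRK2_Sen library, so its silencing was seen at the edge of detection. BDNF fell from 162 ± 6.32 to 47.1 ± 2.44 CPM (counts scaled to library size with TMM factors, mean ± SD, n = 3) after siBDNF and stood at 205 ± 1.2 CPM after siNTRK2. The library totals ranged from 31567912 to 72328151 counts, and a floor of 3 counts corresponded to 0.0427 to 0.0916 CPM. Of the fibroblast markers, VIM stood at 4108 to 5202 CPM (group means), and the summed level of 5 epithelial markers was 0.893 to 5.98 CPM and that of 5 leukocyte markers 0.157 to 2.19 CPM. The cell cycle genes MKI67, TOP2A and CCNB1 summed to 182 to 197 CPM in siCtrl_Prolif, 23.8 to 25.3 in siCtrl_Sen, 45.5 to 46.9 in siNTRK2_Sen and 25.7 to 27.3 in siBDNF_Sen. CDKN1A encodes p21, a cell cycle inhibitor that the study uses as a marker of senescence. It was at 936 CPM in siCtrl_Prolif, 2877 in siCtrl_Sen, 2032 in siNTRK2_Sen and 2793 in siBDNF_Sen (means).

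Several collagen genes lie in pairs. COL4A1 (ENSG00000187498, GRCh37, chr13:110801310-110959504, minus strand) and COL4A2 (ENSG00000134871, chr13:110958159-111165556, plus strand) are arranged head to head and overlap at their starts, as GENCODE places them. COL4A6 (chrX:107398837-107682727, minus strand) and COL4A5 (chrX:107683068-107940775, plus strand) start next to each other in the same way. RefSeq promoter windows (250 bases before to 50 after the start, GRCh38.p14) were found for 32 of the 44 genes. Those of the type IV pairs are shown because the ratio between the members of a pair did not overlap between proliferating and senescent libraries. This was so for most of the chain ratios given below and is not particular to these pairs. The windows of COL15A1 and COL16A1 are shown because these genes had the largest decrease in senescence and the largest increase after siNTRK2. Capitals mark the motifs searched on both strands, which were the GC box with the letters GGGCGG, the box spelled CCAAT, the TATA box in the form TATAAA and the AP-1 site in the form TGANTCA.

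The windows of COL4A1 (chr13:110307108-110307407, minus strand) and COL4A2 (chr13:110307034-110307333, plus strand) share 226 bases on opposite strands:

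COL4A1: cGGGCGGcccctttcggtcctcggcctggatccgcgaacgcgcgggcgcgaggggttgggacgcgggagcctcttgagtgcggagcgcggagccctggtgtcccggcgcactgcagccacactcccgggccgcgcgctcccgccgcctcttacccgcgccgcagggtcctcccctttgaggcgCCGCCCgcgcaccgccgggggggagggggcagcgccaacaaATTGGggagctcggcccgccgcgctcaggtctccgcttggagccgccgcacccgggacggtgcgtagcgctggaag

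COL4A2: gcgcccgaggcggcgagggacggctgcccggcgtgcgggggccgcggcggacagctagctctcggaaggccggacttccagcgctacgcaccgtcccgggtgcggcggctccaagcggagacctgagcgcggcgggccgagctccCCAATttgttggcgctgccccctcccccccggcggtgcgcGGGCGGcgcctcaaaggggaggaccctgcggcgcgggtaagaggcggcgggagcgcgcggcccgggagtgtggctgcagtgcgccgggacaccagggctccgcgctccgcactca

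Those of COL4A5 (chrX:108439588-108439887, plus strand) and COL4A6 (chrX:108439409-108439708, minus strand, the window nearest to COL4A5) share 121 bases:

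COL4A5: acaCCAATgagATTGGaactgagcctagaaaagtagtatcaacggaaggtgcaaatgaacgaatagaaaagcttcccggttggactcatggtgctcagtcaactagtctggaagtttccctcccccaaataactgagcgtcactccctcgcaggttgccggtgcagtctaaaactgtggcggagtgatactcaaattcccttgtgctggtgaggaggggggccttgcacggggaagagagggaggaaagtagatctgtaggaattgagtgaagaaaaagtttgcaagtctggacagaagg

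COL4A6: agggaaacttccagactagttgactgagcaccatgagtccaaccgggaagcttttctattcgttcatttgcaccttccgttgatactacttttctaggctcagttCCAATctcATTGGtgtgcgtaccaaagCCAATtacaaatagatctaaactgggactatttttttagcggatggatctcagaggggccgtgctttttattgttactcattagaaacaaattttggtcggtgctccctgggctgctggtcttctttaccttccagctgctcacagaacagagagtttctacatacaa

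COL15A1 (chr9:98943657-98943956, plus strand) and COL16A1 (chr1:31703968-31704267, minus strand) read as follows:

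COL15A1: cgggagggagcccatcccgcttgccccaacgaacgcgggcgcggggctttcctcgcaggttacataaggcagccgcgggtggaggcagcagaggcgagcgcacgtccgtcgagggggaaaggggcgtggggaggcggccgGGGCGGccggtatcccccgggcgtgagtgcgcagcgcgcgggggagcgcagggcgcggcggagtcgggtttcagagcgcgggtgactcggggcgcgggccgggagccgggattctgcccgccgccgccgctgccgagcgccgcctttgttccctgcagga

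COL16A1: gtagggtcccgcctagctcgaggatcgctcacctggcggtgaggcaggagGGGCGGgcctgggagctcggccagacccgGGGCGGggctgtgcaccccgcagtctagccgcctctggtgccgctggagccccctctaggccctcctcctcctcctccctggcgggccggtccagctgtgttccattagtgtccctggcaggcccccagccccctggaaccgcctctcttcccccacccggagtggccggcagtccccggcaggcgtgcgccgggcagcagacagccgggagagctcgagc

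The shared stretch of COL4A1 and COL4A2 held a GC box and a CCAAT motif, the COL4A5 and COL4A6 windows held 2 and 3 CCAAT motifs and no GC box, and the COL15A1 and COL16A1 windows held 1 and 2 GC boxes and no CCAAT. None of these 6 windows held TATAAA or TGANTCA. Among all 35116 promoter windows, 45% held a GC box, 34.6% CCAAT, 11.5% TATAAA and 7.71% TGANTCA. Among the 44 windows of collagen genes (some genes have several), the shares were 54.5%, 31.8%, 18.2% and 2.27%. A match of letters is a description of the window and not a binding site.

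Collagen mRNAs made up 3.67 to 3.84% of all counts in the siCtrl_Prolif libraries and 2.32 to 2.7% in siCtrl_Sen. In siNTRK2_Sen the share was 3.19 to 3.59% and in siBDNF_Sen 2.79 to 2.9%. The ranges of the 4 groups did not overlap, and the proliferating cells were highest, followed by siNTRK2_Sen, siBDNF_Sen and siCtrl_Sen. COL1A1 and COL1A2, the chains of type I collagen, held 59.7 to 66.3% of the collagen counts in every library. Per kilobase of transcript they were followed by COL6A1, COL6A2 and COL3A1 in siCtrl_Prolif and siCtrl_Sen, at 2430 ± 110 (COL1A1), 1770 ± 22.5 (COL1A2), 658 ± 31.5 (COL6A1), 531 ± 25.4 (COL6A2) and 374 ± 7.84 CPM per kb (COL3A1) in the proliferating cells (mean ± SD, n = 3). The lengths are those of the canonical transcripts.

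**Figure D1:**
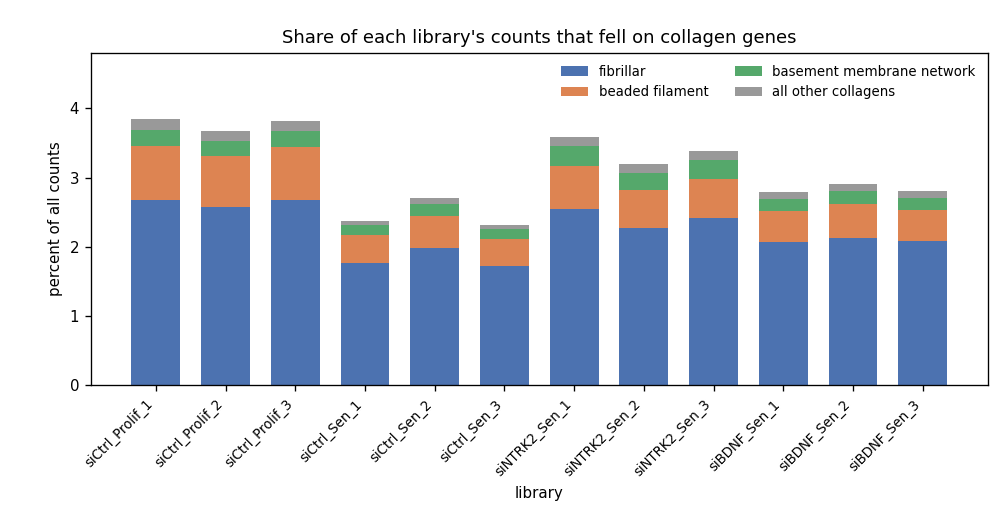
Percent of each library's counts that fell on collagen genes (vertical axis, from 0) in the 12 libraries, stacked by class. The siCtrl_Prolif bars reach 3.67 to 3.84% and the siCtrl_Sen bars 2.32 to 2.7%, with fibrillar collagens as the tallest segment of every bar.

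Within a group the collagen genes tended to be high or low in the same library. Of the 23 members with a mean of at least 10 CPM over all libraries, 22 had their highest siCtrl_Sen value in replicate 2, and 21 had their highest siNTRK2_Sen value in replicate 1. The share of all genes that did so was not computed, so the pattern is not shown to be particular to collagens. The highest value of a group was 1.08 to 1.16 times the lowest in the median member. Leaving out siCtrl_Sen replicate 2 gave 33 collagen genes passing between senescent and proliferating cells, 24 after siNTRK2 and 18 after siBDNF, against 33, 26 and 17 with all libraries.

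Senescent cells were compared with proliferating cells, both with the non-targeting siRNA. The abundant collagens of fibroblasts were lower in senescence. Of the 23 members with a mean of at least 10 CPM over all libraries, 21 fell and 1 rose. Of all genes at that level 39.5% fell and 31.9% rose. COL5A3, COL14A1 and COL15A1 reached this mean only through siCtrl_Prolif (24, 26.8 and 30.6 CPM, against 5.57, 8.39 and 7.06 CPM in siCtrl_Sen). COL4A6 reached it through the senescent groups (5.05 against 15.4 CPM). For such genes the split itself favours a direction. Of the 18 less abundant members, 10 rose and 1 fell, where 28.0% of all genes tested under 10 CPM rose and 18.8% fell. Members at or near 0 counts in proliferating cells could pass the filter on low counts only through the senescent groups, so this count shows no direction of its own, and with at least 10 counts required in every library 30 members were tested, of which 4 rose and 22 fell. Over all 41 tested members, 33 passed (edgeR's quasi-likelihood test, Benjamini-Hochberg adjusted p under 0.05 over all genes), 22 lower and 11 higher, beside 58.1% of all genes tested, 28.3% lower and 29.8% higher. With the study's added cutoff of a log2 fold change beyond 1 in size, 7 members were lower and 11 higher, beside 5.16% and 11.6% of all genes. Of these 11, 10 had a mean under 10 CPM, and the limit of the filter holds for those near 0 in proliferating cells. With at least 10 counts required in every library, 7 were lower and 3 higher past this cutoff. The groups did not overlap for 33 of the tested members, beside 61.3% of all genes. The median log2 fold change was -0.34 over the members and 0.0246 over all genes.

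Among the fibrillar collagens 8 of 11 fell and 1 rose. COL1A1 (ENSG00000108821, GRCh37, chr17:48261462-48278993), the larger share of type I collagen, was at 14374, 13751 and 15056 CPM in siCtrl_Prolif and at 9025, 9872 and 8699 CPM in siCtrl_Sen, a log2 fold change of -0.65 (SE 0.0524, edgeR adjusted p = 9.6e-11). COL1A2 (ENSG00000164692, chr7:94024207-94060539), its partner chain, was at 8970, 8907 and 9129 CPM against 6837, 7674 and 6781 CPM (log2 fold change -0.34, SE 0.0439). The groups did not overlap for either chain. COL3A1, the chain of type III collagen, which mixes with type I in stretchable tissues, stood at 2049, 2010 and 2096 CPM and then at 896, 993 and 926 CPM (log2 fold change -1.13, SE 0.0425).

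Type V collagen is incorporated into type I fibrils and helps to set their diameter. COL5A1 was at 536, 486 and 532 CPM in siCtrl_Prolif and at 301, 342 and 295 CPM in siCtrl_Sen (log2 fold change -0.73). COL5A2 was at 1256, 1252 and 1255 CPM and at 687, 771 and 688 CPM (log2 fold change -0.81). COL5A3, the least abundant chain of the type, had the largest decrease of the fibrillar genes, from 24.1, 22.9 and 24.8 CPM to 5.29, 6.08 and 5.33 CPM (log2 fold change -2.10, SE 0.0982, edgeR adjusted p = 1.9e-15). COL11A1 and COL27A1 fell by 0.27 and 0.72 on the log2 scale. COL24A1 (4.72 and 5.19 CPM, means of siCtrl_Prolif and siCtrl_Sen) and COL11A2 (0.76 and 0.545 CPM) did not pass.

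Among the FACIT collagens 3 of 8 fell and 2 rose. COL16A1 went from 183, 169 and 181 CPM to 48.1, 57.5 and 45.8 CPM (log2 fold change -1.82, SE 0.0757). COL14A1, went from 28, 25 and 27.3 CPM to 8.36, 9.79 and 7.03 CPM (log2 fold change -1.67). COL12A1, the most abundant FACIT gene here, went from 853, 868 and 840.0 CPM to 357, 444 and 345 CPM (log2 fold change -1.16). No senescent library reached a proliferating one for any of the 3 genes.

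The type IV genes went different ways, while both multiplexins fell. COL4A1 was at 1222, 1171 and 1187 CPM in siCtrl_Prolif and 604, 668 and 606 CPM in siCtrl_Sen (log2 fold change -0.93, SE 0.0467). COL4A2, its head-to-head neighbour, was at 1115, 1041 and 1110.0 CPM and 775, 891 and 744 CPM (log2 fold change -0.44, SE 0.0588). COL4A6 was the only member with a mean of at least 10 CPM that rose, from 4.68, 5.1 and 5.36 CPM to 15.9, 16.4 and 13.9 CPM (log2 fold change 1.61, SE 0.085, edgeR adjusted p = 2.09e-14). Its neighbour COL4A5 was at 43.8, 43.5 and 43.5 CPM and 47.7, 48.4 and 45.1 CPM and did not pass (adjusted p = 0.0815), although its groups did not overlap. COL15A1, a multiplexin found beside basement membranes, had the largest decrease of all members, from 30.5, 31.7 and 29.8 CPM to 6.56, 6.46 and 8.17 CPM (log2 fold change -2.12, SE 0.0911). The other multiplexin, COL18A1, whose end is cut off as endostatin, fell by 0.50 on the log2 scale.

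All 3 abundant type VI chains fell. COL6A1 was at 2778, 2625 and 2889 CPM and 1700.0, 1809 and 1694 CPM (log2 fold change -0.67). COL6A2 was at 1856, 1730.0 and 1899 CPM and 980.0, 1111 and 973 CPM (log2 fold change -0.84). COL6A3, the longest chain, was at 3224, 3202 and 3255 CPM and 1472, 1638 and 1349 CPM (log2 fold change -1.12, SE 0.0524). The type VIII chains fell by similar amounts at very different levels, COL8A1 from 205, 197 and 194 CPM to 123, 140.0 and 124 CPM (log2 fold change -0.62) and COL8A2 from 4.31, 4.23 and 3.79 CPM to 2.69, 2.45 and 2.44 CPM (log2 fold change -0.71). COL7A1, the anchoring fibril collagen, and the transmembrane COL13A1 fell by 0.64 and 0.32 on the log2 scale.

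**Figure D2:**
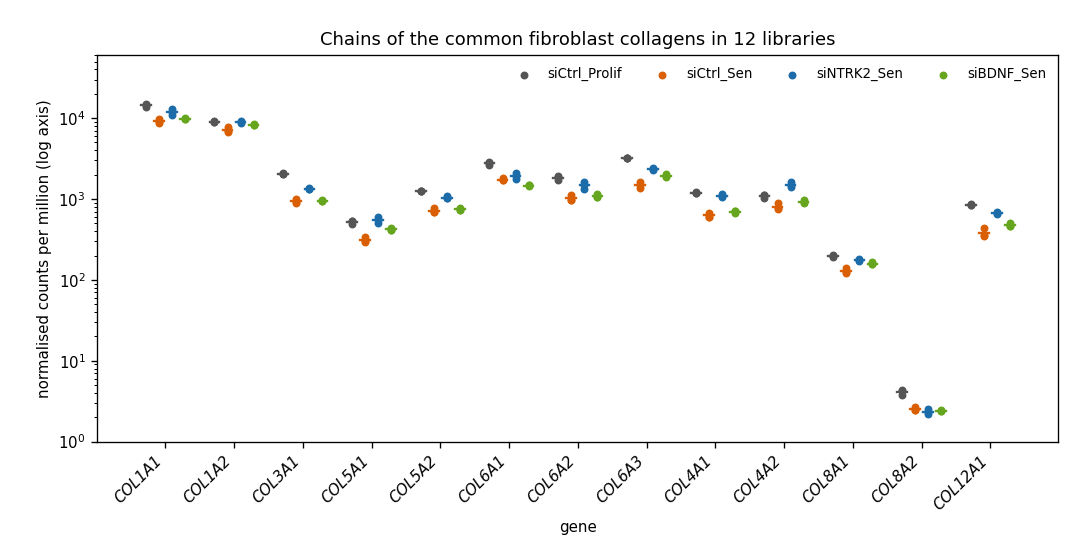
Normalised CPM (log axis) of 13 collagen chains in the 12 libraries; each point is a library and each dash the mean of a group of 3. The siCtrl_Sen points lie below the siCtrl_Prolif points for all 13 genes, and the siNTRK2_Sen points of COL4A2 (1388 to 1621 CPM) lie above those of every other group.

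Several members rose from near 0. COL2A1, the fibrillar collagen of cartilage, had 0, 3 and 1 counts in siCtrl_Prolif and 63, 66 and 85 counts in siCtrl_Sen, a ratio of 50.7 after depth adjustment (exact 95% interval of the counts 19.5 to 188). COL28A1 had 0, 0 and 1 counts and then 26, 15 and 24 counts (ratio 61.6, interval 10.7 to 2470), and COL25A1, a transmembrane collagen of neurons, 1, 4 and 1 counts and then 20, 29 and 30 counts (ratio 12.5, interval 5.48 to 35). These intervals cover counting error only. At so few counts in proliferating cells, these members could pass the filter only through high values in senescent groups. The ratios therefore describe these members and are no test of direction.

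COL6A5 and COL6A6, further type VI chains, were at 0 counts in every proliferating library and had 14, 7 and 4 counts and 11, 6 and 7 counts in siCtrl_Sen, that is, at least 2.47-fold and 2.37-fold higher against a floor of 3 counts per library. Both could likewise pass the filter only through the senescent groups. COL26A1 went from 0.0718, 0.0712 and 0.135 CPM to 0.552, 0.379 and 0.398 CPM. COL22A1, COL10A1 and COL17A1 rose from group means of 0.724, 0.909 and 0.294 CPM to 2.06, 2.08 and 1.28 CPM. COL19A1 went from 3, 1 and 2 counts to 18, 12 and 3 counts, and its call was lost when siCtrl_Prolif replicate 2 or siCtrl_Sen replicate 1 was left out. The 3 genes that were not tested, COL9A1, COL20A1 and COL23A1, were also at 0 counts in every proliferating library and had at most 9, 8 and 6 counts in a siCtrl_Sen library. The 8 tested members that did not pass between senescent and proliferating cells were COL4A5, COL24A1 and COL11A2, given above, and COL4A3, COL4A4, COL9A2, COL9A3 and COL21A1, with log2 fold changes of 0.06 to 1.02 for these 5.

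Other genes moved alongside, some of them at or near 0 counts in proliferating cells. The libraries listed 24315 to 25396 genes with a count in siCtrl_Prolif and 28867 to 30049 in siCtrl_Sen, at totals of 38815444 to 72328151 and 56918503 to 58653356 counts. Of the cartilage markers ACAN, SOX9, MATN3, COMP and CNMD, whose summed level was 41.6 to 44.1 CPM in siCtrl_Prolif and 61.7 to 64 in siCtrl_Sen, ACAN, SOX9 and COMP rose and MATN3 fell, and CNMD was at 0 in every proliferating library. Of the fibroblast markers, PDGFRA, PDGFRB, FAP, DCN, LUM and S100A4 fell, THY1 rose and VIM did not pass, with a summed level of 7681 to 7987 CPM in siCtrl_Prolif and 6595 to 6931 in siCtrl_Sen. Of the smooth muscle markers, ACTG2 and LMOD1 fell, CNN1 rose and MYH11 and DES did not pass, with a summed level of 436 to 490 CPM and then 327 to 353 CPM. The 5 leukocyte markers summed to 0.157 to 0.215 CPM in siCtrl_Prolif, where 4 of them were at 0 in every library, and to 1.7 to 1.93 CPM in siCtrl_Sen. The 5 epithelial markers summed to 0.893 to 1.13 CPM and then 3.6 to 4.47 CPM, where CDH1 and CLDN4 rose and EPCAM did not pass. The endothelial markers CDH5, VWF, KDR and TIE1 summed to 0.812 to 2.11 CPM and then 2.42 to 2.65 CPM. Of these, VWF and KDR rose, TIE1 fell and CDH5 was at 0 in every proliferating library. The part of these changes in the collagen values was not tested. COL19A1, COL10A1, COL9A3 and COL18A1 overlap genes on the other strand (LMBRD1, NT5DC1, TCFL5 and SLC19A1), with 14053, 15800, 7939 and 33266 counts over all libraries against 149, 1173, 594 and 92045 for the collagens, and COL4A1 and COL4A2 overlap each other. The libraries were stranded, but whether the counting used strand is not given in the sources used here, so reads from the shared stretches may not be told apart.

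siNTRK2_Sen was compared with siCtrl_Sen to ask which collagen mRNAs change when TrkB is silenced in senescent cells. The abundant collagens were higher throughout: all 23 members with a mean of at least 10 CPM rose, whereas 18.3% of all genes at that level rose. Of all 41 tested members, 25 rose and 1 fell (edgeR, adjusted p under 0.05), beside 21.1% of all genes tested that passed and 11.1% that rose and 10.0% that fell. The increases were moderate, with a median log2 fold change of 0.50 over the members and -0.00236 over all genes, and only COL16A1 and COL25A1 passed a log2 fold change of 1 in size, which 0.957% of all genes did (0.39% higher and 0.567% lower). The groups did not overlap for 26 of the tested members, beside 32.8% of all genes. Both silencing comparisons share the siCtrl_Sen libraries.

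The largest increase was that of COL16A1, which was at 48.1, 57.5 and 45.8 CPM in siCtrl_Sen and at 115, 93.8 and 109 CPM in siNTRK2_Sen (log2 fold change 1.07, SE 0.0751, edgeR adjusted p = 2.03e-10). COL4A2 went from 775, 891 and 744 CPM to 1621, 1388 and 1505 CPM (log2 fold change 0.91, SE 0.0591) and COL4A1 from 604, 668 and 606 CPM to 1162, 1055 and 1091 CPM (log2 fold change 0.82). The siNTRK2_Sen libraries of COL4A2 were thus above the proliferating libraries too, while those of COL16A1 were below them. COL27A1, a fibrillar collagen of developing cartilage, went from 9.23, 9.58 and 6.3 CPM to 16.8, 12.9 and 16.3 CPM (log2 fold change 0.88).

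COL18A1 went from 99.7, 112 and 91.6 CPM to 203, 163 and 186 CPM (log2 fold change 0.86, SE 0.07). COL7A1 went from 45.6, 51.4 and 37.8 CPM to 87.7, 71.4 and 82.5 CPM (log2 fold change 0.84). COL11A2 went from 0.41, 0.706 and 0.519 CPM to 0.808, 1.25 and 0.931 CPM, and its call (log2 fold change 0.86, adjusted p = 0.041 with edgeR) was lost without siCtrl_Sen replicate 1 or 3 or without siNTRK2_Sen replicate 2 or 3, without a filter on low counts (0.0634) and with only these groups in the fit (0.0823). In none of these 3 genes did the groups overlap.

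The type I chains rose least of the major fibrillar genes. COL1A1 reached 12912, 10906 and 11973 CPM (log2 fold change 0.38, SE 0.0523) and COL1A2 9320.0, 8713 and 8853 CPM (0.34, SE 0.0439), all above the siCtrl_Sen libraries. COL3A1 reached 1377, 1330.0 and 1328 CPM (0.52), COL5A1 599, 509 and 557 CPM (0.83) and COL5A2 1075, 1020.0 and 1035 CPM (0.54). The highest siCtrl_Sen libraries of these genes were at 993, 342 and 771 CPM.

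Among the type VI chains, COL6A3 rose from 1472, 1638 and 1349 CPM to 2406, 2353 and 2280.0 CPM (log2 fold change 0.66) and COL6A2 from 980.0, 1111 and 973 CPM to 1608, 1315 and 1485 CPM (0.52). COL6A1 was at 2102, 1763 and 1947 CPM against 1700.0, 1809 and 1694 CPM; its groups overlapped, and its small increase (0.16, edgeR adjusted p = 0.0286) was lost without siCtrl_Sen replicate 1 or 3 or without siNTRK2_Sen replicate 1 or 3. COL12A1 rose to 673, 691 and 646 CPM (0.81, SE 0.0634). COL15A1 rose to 9.34, 8.47 and 8.9 CPM (0.34), a call that was lost without siCtrl_Sen replicate 1 or 2 or siNTRK2_Sen replicate 1. COL8A1 rose to 182, 170.0 and 176 CPM (0.45), whereas COL8A2 was at 2.17, 2.52 and 2.31 CPM and did not pass (-0.12, SE 0.139).

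COL25A1 was the only member that fell, from 20, 29 and 30 counts to 10, 13 and 5 counts (log2 fold change -1.41, SE 0.482, edgeR adjusted p = 0.0379). The call was lost without any of the siCtrl_Sen libraries, without siNTRK2_Sen replicate 1 or 3, without a filter on low counts (adjusted p = 0.0585) and with only these groups in the fit (0.0658). COL28A1 fitted at -1.34 (SE 0.558) and did not pass. The other collagens that had risen from near 0 in senescence did not pass either, among them COL2A1 at 1.05, 1.27 and 1.4 CPM against 1.12, 1.14 and 1.47 CPM (log2 fold change -0.01, SE 0.246).

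The cell cycle genes moved in the same libraries: MKI67, TOP2A and CCNB1 rose by 1.72, 1.11 and 0.54 on the log2 scale after siNTRK2, and CDKN1A fell by 0.50. Of 8 fibroblast markers, PDGFRB, FAP, LUM and S100A4 rose by 0.28, 0.74, 0.52 and 0.29, THY1 fell by 0.25, and VIM, PDGFRA and DCN did not pass, with a summed level of 6449 to 6688 CPM against 6595 to 6931 CPM in siCtrl_Sen. Of the smooth muscle markers only CNN1 passed, falling by 0.27, with a summed level of 307 to 317 CPM. Their part in the collagen result was not tested. Of the 15 tested members that did not pass after siNTRK2, all had a mean under 10 CPM.

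siBDNF_Sen was compared with siCtrl_Sen for the same question about BDNF. The changes were smaller and went both ways: 14 of the 41 tested members rose and 3 fell (edgeR, adjusted p under 0.05), beside 20.5% of all genes tested that passed, 10.3% higher and 10.2% lower. Of the 23 members with a mean of at least 10 CPM, 13 rose and 3 fell, beside 17.4% and 18.7% of all genes at that level. No member passed with a log2 fold change beyond 1 in size in edgeR or in DESeq2, nor did any at an unadjusted p under 0.05 (0 members), beside 0.609% of all genes (0.372% higher and 0.237% lower), while 19 members had an unadjusted p under 0.05 whatever the fold. The groups did not overlap for 21 of the tested members, beside 37.3% of all genes. The median log2 fold change was 0.27.

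COL4A6 had the largest passing increase and went from 15.9, 16.4 and 13.9 CPM to 23, 24.6 and 23.9 CPM (log2 fold change 0.63, SE 0.0748, edgeR adjusted p = 1.15e-06), and COL4A5 from 47.7, 48.4 and 45.1 CPM to 59.5, 64.8 and 58.4 CPM (0.37). COL16A1 went to 67.4, 73.9 and 64.1 CPM (0.44, SE 0.0754). COL24A1, a minor fibrillar collagen, went from 5.06, 5.87 and 4.62 CPM to 7.6, 7.8 and 5.88 CPM (0.44), and its call was lost without siCtrl_Sen replicate 3 or siBDNF_Sen replicate 2. For these 4 genes every siBDNF_Sen library was above every siCtrl_Sen library.

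Of the type V and VI chains, COL5A1 rose to 409, 437 and 415 CPM (log2 fold change 0.43, SE 0.0585), whereas COL5A2 was at 734, 773 and 733 CPM against 687, 771 and 688 CPM and did not pass (0.06, SE 0.0453). COL6A3 rose to 1866, 2042 and 1934 CPM (0.39). COL6A2 was at 1053, 1140.0 and 1062 CPM and did not pass (0.09, SE 0.0602), and COL6A1 fell to 1430.0, 1503 and 1471 CPM (-0.24, SE 0.0518, edgeR adjusted p = 0.00145). The chains of type VI collagen thus gave 1 increase, 1 decrease and 1 value that did not pass.

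The type I chains also differed. COL1A2 rose to 8153, 8373 and 8259 CPM (log2 fold change 0.22, SE 0.0438), above every siCtrl_Sen library, while COL1A1 at 9641, 9876 and 9914 CPM overlapped the siCtrl_Sen libraries and did not pass (0.09, SE 0.0522, edgeR adjusted p = 0.239). COL3A1 at 934, 963 and 954 CPM did not pass (0.02, SE 0.042). COL12A1 reached 459, 500.0 and 462 CPM (0.31) and COL8A1 155, 164 and 157 CPM (0.30), and both rose, while COL8A2 at 2.38, 2.39 and 2.44 CPM did not pass. COL4A1 (678, 715 and 704 CPM, 0.16) and COL4A2 (892, 970.0 and 913 CPM, 0.20) rose slightly, and both calls were lost without siCtrl_Sen replicate 1 or 3 or without siBDNF_Sen replicate 2, that of COL4A1 also without siBDNF_Sen replicate 3.

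Besides COL6A1, COL15A1 and COL14A1 fell. COL15A1 went from 6.56, 6.46 and 8.17 CPM to 5.01, 4.59 and 4 CPM (log2 fold change -0.66, SE 0.102, edgeR adjusted p = 4.72e-05), with no overlap. COL14A1 was at 7.33, 6.93 and 6.45 CPM against 8.36, 9.79 and 7.03 CPM, so its groups overlapped, and its call (-0.29, edgeR adjusted p = 0.0391) was lost without any of the siBDNF_Sen libraries, without siCtrl_Sen replicate 1 or 2, with library totals in place of TMM (0.121) and with only these groups in the fit (0.0519). Of the 8 fibroblast markers, VIM, PDGFRA, PDGFRB, THY1, DCN and LUM fell after siBDNF and FAP rose, with a summed level of 5393 to 5570 CPM. Of 5 smooth muscle markers, ACTG2, LMOD1 and CNN1 fell by 0.78, 0.56 and 0.22 on the log2 scale and MYH11 and DES did not pass, with a summed level of 224 to 234 CPM against 327 to 353 CPM in siCtrl_Sen. MKI67 rose by 0.91, while TOP2A, CCNB1 and CDKN1A did not pass. Their part in these values was not tested.

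**Figure D3:**
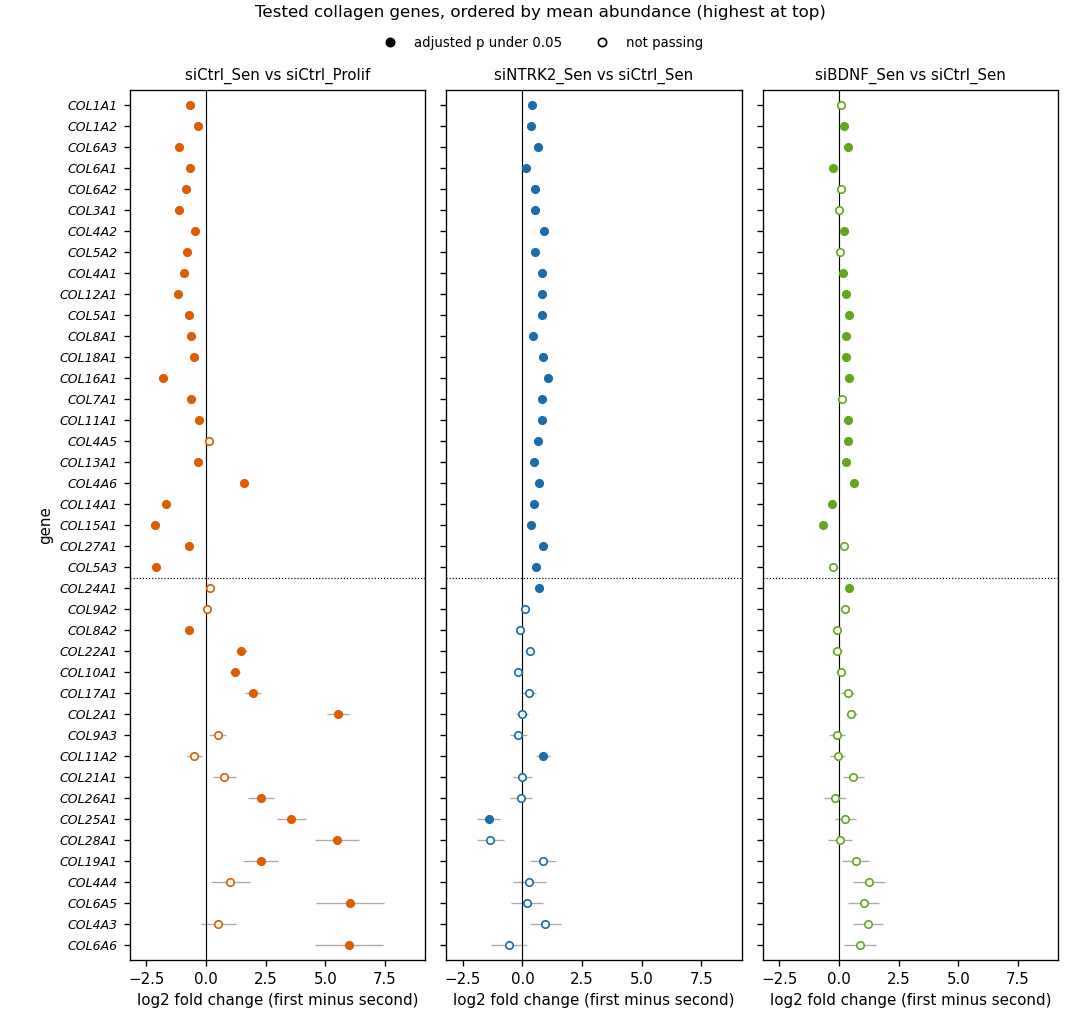
Log2 fold change (horizontal axis, lines ± 1 SE from edgeR) of the 41 tested collagen genes in 3 comparisons, ordered by mean abundance, with the dotted line at a mean of 10 CPM and filled points at an adjusted p under 0.05. Above the line 21 of 23 genes fell in senescent cells and all 23 rose after siNTRK2. COL6A5 and COL6A6 had 0 counts in proliferating cells, so their fitted values in the left panel are no bounds.

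siNTRK2_Sen was then tested directly against siBDNF_Sen. In this comparison 22 members were higher after siNTRK2 and 1 was lower (edgeR, adjusted p under 0.05), beside 16.7% of all genes tested that passed and 8.84% that were higher and 7.86% that were lower. Of the 23 members with a mean of at least 10 CPM, 21 were higher and 0 lower, beside 14.4% and 11.8% of all genes at that level. The groups did not overlap for 28 members, beside 34.2% of all genes. Only COL25A1 passed a log2 fold change of 1 in size, which 1.16% of all genes did (0.335% higher and 0.827% lower), with 10, 13 and 5 counts against 13, 44 and 40 counts (log2 fold change -1.68, SE 0.478). COL15A1 was at 9.34, 8.47 and 8.9 CPM after siNTRK2 and 5.01, 4.59 and 4 CPM after siBDNF (0.99, SE 0.101), and COL14A1 at 11.4, 12.1 and 11.6 CPM and 7.33, 6.93 and 6.45 CPM (0.77). With COL6A1, these genes passed in opposite directions against siCtrl_Sen, COL15A1 at 0.34 and -0.66, COL14A1 at 0.48 and -0.29 and COL6A1 at 0.16 and -0.24. For each of the 3 genes the smaller of these changes lost its call when single libraries were left out, as given above, and that of COL14A1 also with library totals and with only the groups compared in the fit.

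COL5A3 was at 9.2, 8.33 and 7.04 CPM after siNTRK2 and 4.27, 5.16 and 4.56 CPM after siBDNF (log2 fold change 0.80). COL7A1 was at 87.7, 71.4 and 82.5 CPM and 52.2, 52.7 and 41 CPM (0.73), and COL11A2 at 0.808, 1.25 and 0.931 CPM and 0.458, 0.547 and 0.553 CPM (0.91, SE 0.301). COL4A2 differed by 0.70 (1621, 1388 and 1505 CPM against 892, 970.0 and 913 CPM) and COL4A1 by 0.66. Leaving out single libraries ended the calls of COL25A1 (siBDNF_Sen replicate 2 or 3, siNTRK2_Sen replicate 1 or 3), COL11A2 (any siBDNF_Sen library, siNTRK2_Sen replicate 2 or 3), COL8A1 (0.15; replicate 1 or 3 of either group) and COL13A1 (0.22; siBDNF_Sen replicate 3, siNTRK2_Sen replicate 1). COL4A6, at 26.4, 23.6 and 24.1 CPM and 23, 24.6 and 23.9 CPM, overlapped between the silencings and did not pass (0.05, SE 0.0732). COL1A2 did not pass either (0.12, SE 0.0438, edgeR adjusted p = 0.0684), while COL1A1 differed by 0.28.

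Because collagens are assembled from set chains, the levels of partner chains were compared within each library, as ratios of CPM per kb. COL1A1 and COL1A2 combine in type I collagen, which takes more of the former. Their ratio was 1.37, 1.32 and 1.41 in siCtrl_Prolif and 1.13, 1.1 and 1.1 in siCtrl_Sen. It was 1.19, 1.07 and 1.16 in siNTRK2_Sen, which overlapped siCtrl_Sen, and 1.01, 1.01 and 1.03 in siBDNF_Sen, below every other library.

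The ratio of COL4A1 to COL4A2 was 1.05 to 1.11 in proliferating cells and 0.739 to 0.803, 0.707 to 0.749 and 0.727 to 0.76 in siCtrl_Sen, siNTRK2_Sen and siBDNF_Sen, so that the order of the chains was reversed in all senescent groups, which overlapped each other. The ratio of COL4A6 to COL4A5 was 0.105 to 0.12 in proliferating cells, 0.301 to 0.33 in siCtrl_Sen, 0.323 to 0.337 in siNTRK2_Sen and 0.37 to 0.401 in siBDNF_Sen. The ratio of COL6A1 to COL6A2 was 1.23 to 1.25 in proliferating cells, higher in siCtrl_Sen (1.33 to 1.43) and lower after both silencings (1.07 to 1.1 after siNTRK2 and 1.08 to 1.13 after siBDNF). That of COL5A1 to COL5A2 was 0.314 to 0.345, 0.347 to 0.359, 0.404 to 0.451 and 0.451 to 0.458 in the 4 groups in this order.

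COL6A3 to COL6A2 was 0.561 to 0.605, 0.454 to 0.491, 0.489 to 0.585 and 0.58 to 0.595 in siCtrl_Prolif, siCtrl_Sen, siNTRK2_Sen and siBDNF_Sen. COL3A1 to COL1A1 was 0.15 to 0.157 in proliferating cells and 0.104 to 0.131 in the senescent groups. COL8A1 was 38.7 to 48.6 times COL8A2 in the siCtrl groups and 54.4 to 71.2 times after the silencings. In 17 of the 24 comparisons of a ratio between groups the ranges did not overlap, each with a two-sided exact permutation p of 0.1, the smallest that groups of 3 allow, so no single ratio could pass a threshold of 0.05. No share over other gene pairs was computed. Single genes did not overlap in 61.3% (senescence), 32.8% (siNTRK2) and 37.3% (siBDNF) of all genes tested. All 24 comparisons use the siCtrl_Sen libraries and some share a chain, so their count is no result about chain balance.

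**Figure D4:**
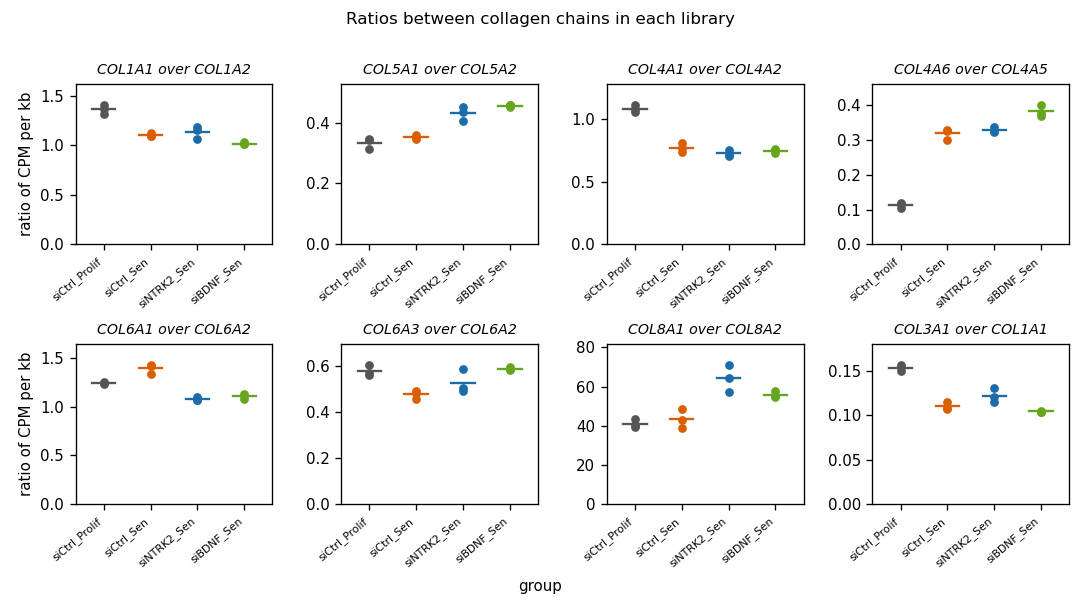
Ratio of the CPM per kb of partner chains (vertical axes from 0) in each of the 12 libraries by group; points are libraries and dashes the means of 3. The COL4A1 to COL4A2 ratio lies at 1.05 to 1.11 in siCtrl_Prolif and below 1 in every senescent library, and the COL4A6 to COL4A5 ratio lies lowest in siCtrl_Prolif.

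Genes that modify, export, trim, cross-link and bind collagens were listed separately (46 genes, 45 tested, TLL1 not), and their counts are read beside the same percentages of all genes as above. Most of them had a mean of at least 10 CPM, so the percentage of all genes at that level is given second. In senescent against proliferating cells 19 rose (29.8% of all genes, 31.9% at that level) and 17 fell (28.3% and 39.5%). SERPINH1, the collagen chaperone HSP47, fell from 1210.0, 1172 and 1247 CPM to 516, 517 and 526 CPM (log2 fold change -1.22, SE 0.0424), and PCOLCE, which enhances the trimming of fibrillar procollagens, from 425, 422 and 468 CPM to 129, 143 and 134 CPM (-1.69, SE 0.0512). COLGALT2, a collagen galactosyltransferase, fell by 1.32, LOXL2 by 0.40 and ADAMTS2, which removes the procollagen end, by 0.96 on the log2 scale.

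Other processing genes rose in senescence. LOX, which cross-links fibrils, rose from 476, 455 and 427 CPM to 674, 684 and 685 CPM (log2 fold change 0.59), and P3H2, a prolyl hydroxylase that acts on basement membrane collagen, from 107, 105 and 110.0 CPM to 224, 233 and 231 CPM (1.10). The prolyl and lysyl hydroxylases P4HA2, P4HA3 and PLOD2 rose by 0.47, 0.46 and 0.25, and P4HA1 did not pass (-0.04, SE 0.0492). The largest increases were those of ASPN (2.52), a small proteoglycan at 0.161, 0.157 and 0.189 CPM and then 0.677, 1.29 and 0.935 CPM, and the protease TLL2 (1.84), at 0.0538, 0.171 and 0.325 CPM and then 0.588, 0.81 and 0.45 CPM.

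After siNTRK2, 23 of the 45 rose (11.1% of all genes, 18.3% of those with a mean of at least 10 CPM) and 5 fell (10.0% and 17.1%). ADAMTS2 rose from 82.5, 90.5 and 80.8 CPM to 148, 133 and 143 CPM (log2 fold change 0.74, SE 0.0495) and MRC2, a receptor for collagen uptake, from 324, 377 and 311 CPM to 577, 501 and 545 CPM (0.68). ADAMTS14 rose at a low level, from 1.21, 0.93 and 0.658 CPM to 1.81, 1.45 and 2.55 CPM (1.06, SE 0.238). The proteoglycan FMOD (0.64) also rose, as did SERPINH1 (0.33), P4HA3 (0.38), PLOD2 (0.23) and LOXL2 (0.26). P4HA2 fell by 0.13, and LOX (-0.10, SE 0.0438) and P4HA1 did not pass.

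After siBDNF, 9 rose (10.3% of all genes, 17.4% of those with a mean of at least 10 CPM) and 11 fell (10.2% and 18.7%). P3H2 fell from 224, 233 and 231 CPM to 119, 122 and 124 CPM (log2 fold change -0.92, SE 0.0418, edgeR adjusted p = 1.12e-13), against 105 to 110.0 CPM in proliferating cells, and stood at 208, 210.0 and 205 CPM after siNTRK2. The proteoglycans that coat fibrils fell in part, DCN from 556, 626 and 578 CPM to 370.0, 382 and 376 CPM (-0.64) and BGN by 0.48. ADAMTS2 (0.54), MRC2 (0.50) and PLOD2 (0.28) rose, LOX fell by 0.21, and SERPINH1, LOXL2, P4HA1, P4HA2 and P4HA3 did not pass. In the direct comparison 22 of the 45 were higher after siNTRK2 (8.84% of all genes, 14.4% at that level). Only 1, MIA2, was lower (7.86% and 11.8%). The largest differences were those of FMOD (0.78), P3H2 (0.77), LUM (0.69) and BGN (0.68).

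**Figure D5:**
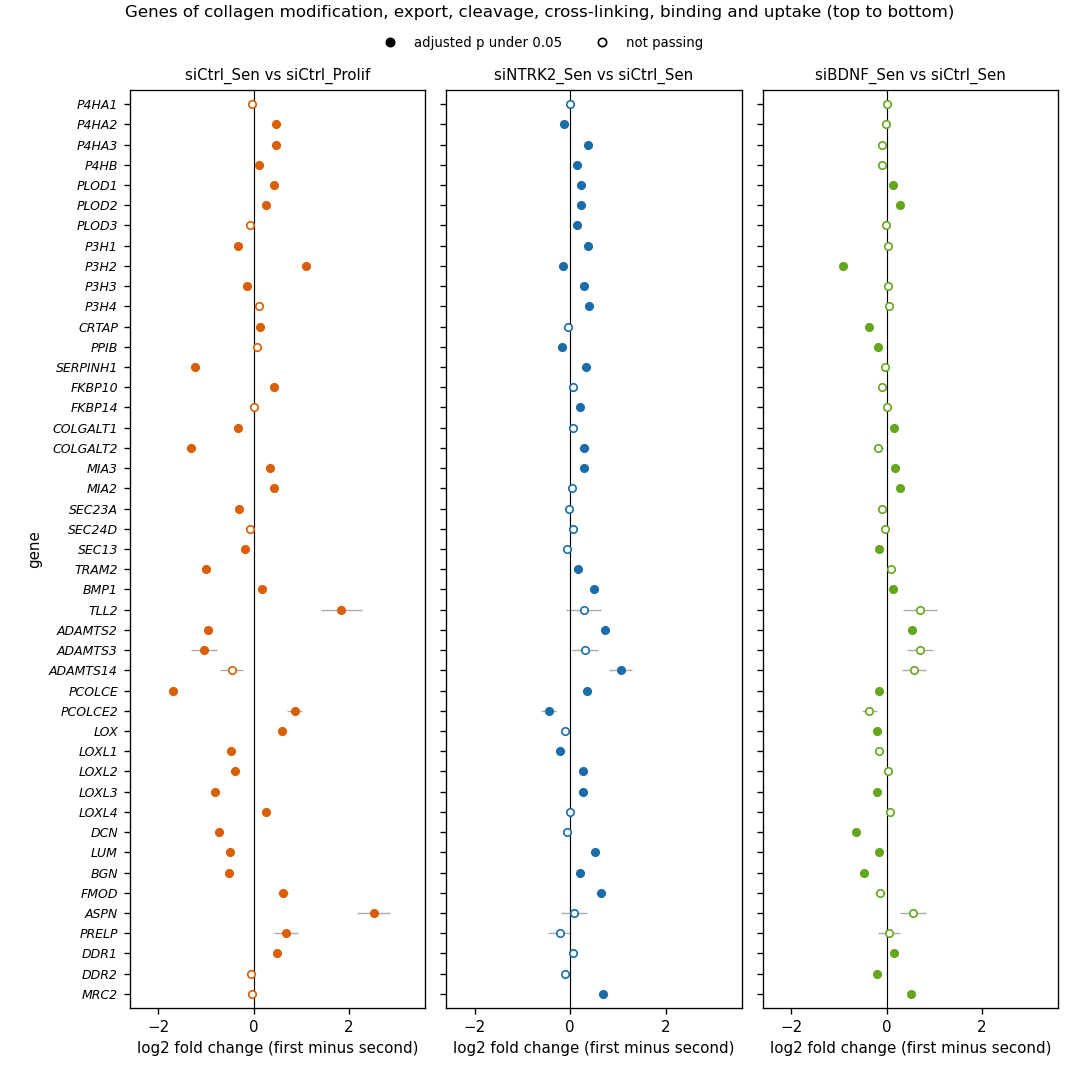
Log2 fold change (horizontal axis, lines ± 1 SE from edgeR) of 45 genes of collagen processing in 3 comparisons, listed from modification at the top to uptake at the bottom, with filled points at an adjusted p under 0.05. SERPINH1 and PCOLCE lie at -1.22 and -1.69 in the senescence panel, and P3H2 lies at 1.10 there and at -0.92 after siBDNF.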

How the data were processed

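The libraries (TruSeq Stranded mRNA) were trimmed with cutadapt and aligned with STAR 2.4.0j, and the authors deposited raw counts per gene, made with featureCounts 1.6.4 against GRCh37 per the labels. The table holds 57773 genes in 12 libraries, grouped by the labels. From these counts, CPM were computed with TMM factors, and edgeR 4.0.16 (R 4.3.3; filterByExpr, 1 term per group, all libraries, quasi-likelihood test, Benjamini-Hochberg adjustment over 21518 genes) was used for 4 comparisons. The study's cutoff of a log2 fold change of 1 in size was added as a second rule. Collagen genes, processing genes and markers were chosen with earlier results of these data known. Values in every library are given for 13 chains of common fibroblast collagens, for the 6 largest passing increases and decreases of each comparison and for a few processing genes, and further members were named after their values were seen. Chain ratios were tested with exact permutation tests (scipy 1.17.1).

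Depth was 31567912 to 72328151 counts, and floors (3 counts per library) and 95% intervals cover counting error only. On simulated data with 200 changed genes in the comparison of senescent with proliferating cells (20898 genes), edgeR called 162 of them and made 7 false calls. The simulation took the spread of each gene from the trend with abundance. In the real comparison 58.1% of all genes passed. The false calls are therefore no measure of error in these data. Libraries of a group differed by more than sampling noise (chi-square of 3.8 to 12.9 per gene). Alternatives were DESeq2 1.42.0, other normalisations and filters, fewer groups, a replicate block, leaving out each library, and a correction (offset) of each library for the length and GC content of transcripts (natural splines with 4 degrees of freedom), the last added after seeing the data. Promoter windows were searched for motifs by exact letters.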

Additional observations from a re-analysis of the deposited data

Results flagged for a closer look

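The difference between the silencings was itself tested (siNTRK2_Sen against siBDNF_Sen, edgeR, adjusted p under 0.05), and 23 collagen genes differed. The log2 differences of the fibrillar members were 0.28 (COL1A1), 0.50 (COL3A1), 0.40 (COL5A1), 0.48 (COL5A2), 0.80 (COL5A3), 0.47 (COL11A1), 0.91 (COL11A2) and 0.67 (COL27A1). Those of the network and beaded filament members were 0.66 (COL4A1), 0.70 (COL4A2), 0.27 (COL4A5), 0.15 (COL8A1), 0.40 (COL6A1), 0.44 (COL6A2) and 0.27 (COL6A3). The fibril-associated and anchoring members differed by 0.50 (COL12A1), 0.77 (COL14A1), 0.63 (COL16A1) and 0.73 (COL7A1), the multiplexins by 0.99 (COL15A1) and 0.57 (COL18A1), and the transmembrane members by 0.22 (COL13A1) and -1.68 (COL25A1). All values but the last are higher after siNTRK2. COL14A1, COL15A1 and COL6A1 passed in opposite directions against siCtrl_Sen. Of these opposite calls, those of COL15A1 (adjusted p = 0.0509 to 0.0794, edgeR) and COL6A1 (0.0829 to 0.213) after siNTRK2 and that of COL14A1 after siBDNF (0.0514 to 0.295) were lost when single libraries were left out, and the groups of the last 2 genes overlapped. In the direct comparison the calls of COL25A1, COL11A2, COL8A1 and COL13A1 were lost in some alternative settings, whereas those of the other 19 held in every alternative in which they were tested.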

How the results depend on the processing

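Of the 33, 26, 17 and 23 collagen genes passing in the 4 comparisons, 32, 22, 13 and 19 passed in the same direction in every alternative in which they were tested. Leaving out each library in turn gave 32 to 33 passing genes between senescent and proliferating cells, 22 to 26 after siNTRK2, 13 to 18 after siBDNF and 19 to 23 between the silencings. Between senescent and proliferating cells, 34 passed with DESeq2, with its size factors in edgeR or with library totals, 12 of them higher. There, 36 passed without a filter, 26 with at least 10 counts in every library and 30 with only the groups compared. With the cutoff on fold, the same ranges were 17 to 18, 1 to 3, 0 to 0 and 0 to 2. Counts past that cutoff moved from 18 (7 lower, 11 higher) to 10 (7 lower, 3 higher) between senescent and proliferating cells with at least 10 counts required in every library, which removes low members from the test. After siNTRK2 they moved from 2 to 1 with DESeq2, with at least 10 counts in every library and with only the groups compared. Between the silencings they moved from 1 to 0 with DESeq2 and with at least 10 counts in every library, and to 2 without a filter and with the offset for length and GC content. The cause was not tested.

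Signs reversed for values that did not pass. For P4HA1 these were 0.15 with the offset in senescence, 0.01 after siNTRK2 with library totals or no filter and -0.03 to 0.03 without 1 library, 0.06 after siBDNF with library totals, 0.01 with no filter or at least 10 counts and -0.02 to 0.02 without 1 library, and 0.00 between the silencings with no filter and -0.03 to 0.03 without 1 library. After siBDNF, COL3A1 was at -0.01 with the offset and -0.01 to 0.07 without 1 library, COL5A2 at -0.01 with the offset, SERPINH1 at 0.03 with library totals and 0.05 with the offset, and P4HA2 at 0.04 with library totals and -0.04 to 0.01 without 1 library. COL8A2 was at -0.10 to 0.00 between the silencings without 1 library. Over 124 named results and 20 alternatives, 1626 of 1722 values kept direction and call.

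Same-numbered libraries of different groups did not deviate together over all genes tested (mean correlation 0.00184, range -0.0396 to 0.027), so no pairing by number was seen. The correlation gave genes with few counts the same weight as abundant ones, so it cannot exclude a pairing. With a replicate block 33, 26, 17 and 23 collagen genes passed, and no call of a named result changed. Depth limits the members with few counts, where single libraries decided calls.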
